A study of Arabidopsis thaliana with 20 samples.

Results

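The plastid genome transcripts of the Arabidopsis root were taken as all rows of the deposited expression table whose identifier starts with ATCG and that reached 1 FPKM (fragments per kilobase of transcript, scaled to the library's mapped fragments) in at least 2 of 20 libraries. Of 130 ATCG rows 83 qualified, out of 33201 rows in the table. All libraries came from Col-0 seedlings that carry PET111:GFP, a reporter of the columella. Seedlings were grown on medium with sucrose, root tips were cut into an elongation zone (EZ) and a meristematic zone (MZ), and GFP-negative protoplasts were collected by sorting, so that columella cells were left out. EZ and MZ were each sampled at 3, 4, 5, 6 and 7 days with 2 biological replicates per zone and age, in 10 groups. The labels do not give the number of seedlings pooled.

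The plastid genome encodes part of the photosystems, the cytochrome b6f complex, the ATP synthase, an NADH dehydrogenase-like (NDH) complex and the large subunit of RuBisCO, together with the core of a bacterial-type RNA polymerase, ribosomal RNAs, tRNAs and part of the ribosomal proteins. It is transcribed by that plastid-encoded polymerase and by nuclear-encoded phage-type polymerases. Root plastids are not green: in the columella they hold starch, and elsewhere in the root they make fatty acids, amino acids and other metabolites.

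The markers of dividing and of elongating cells ran mostly opposite to the zone labels, so libraries are called by their labels. PCNA1, a clamp that holds DNA polymerase on its template (AT1G07370), had a median of 37.1 FPKM in the libraries labelled EZ and 7.63 FPKM in those labelled MZ. The summed level of the 4 markers of dividing cells ran from 24.5 to 126 FPKM in EZ and from 9.99 to 39.7 FPKM in MZ, and 3 of the 4 were higher in EZ. Of 3 markers of elongating or differentiating cells, 2 were lower in EZ and 0 higher. Of 5 root cap markers 3 were lower in EZ and 0 higher, which runs with the labels and not against them. Of all genes tested, 20.6% were higher and 7.77% lower in EZ. The part of these markers in the plastid results was not tested. The summed level of 9 markers of photosynthetic tissue ran from 4.35 to 35.5 FPKM in EZ and from 1.73 to 16.7 FPKM in MZ, and of the 6 that were tested 0 passed. The highest median levels were those of LHCB3, a chlorophyll-binding protein, at 3.16 FPKM in EZ and 2.61 FPKM in MZ, LHCB1.3, another, at 2.55 FPKM in EZ and 2.04 FPKM in MZ, RCA (RuBisCO activase) at 2.21 FPKM in EZ and 1.35 FPKM in MZ and LHCA1, a photosystem I antenna protein, at 1.69 FPKM in EZ and 1.68 FPKM in MZ. RBCS1B, a RuBisCO small subunit, had a median of 0 under both labels. Depth recovered from the spacing of low values ran from 13.1 to 51.5 M fragments in EZ and from 4.21 to 24.9 M in MZ. In bulk RNA, fewer cells of a type and less RNA per cell cannot be told apart.

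Neither the table nor the reference annotation pairs the ATCG identifiers with gene names. The 70 names used here are the standard ones of the locus codes, and 13 rows were given none. Of the identifiers, 5 occur in descriptions of nuclear genes in the reference. As a check, transcript length was read from the table itself, from the size of the step that 1 fragment makes in the FPKM of a row. It fell within 1 base of the RefSeq coding length of the named gene for 21 of 21 named rows of at most 300 bases, all used to set the length curve and so no independent check, and within 3.85 bases for 28 of 32 rows in all. The exceptions were rpl20, ycf3, cemA and rps2, and the row used for rps12, a gene whose parts are joined from separate transcripts, came out at 114 bases. For 41 named rows no such match was had. In these rows 14 of 17 values of 1 to 6 fragments were whole numbers within 0.15 at the length of the named gene. Unnamed rows were 70.9 to 91.8 bases long where this could be read (11 of 13), and plastid tRNA genes in RefSeq are 71 to 103 bases long.

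A pair of coding sequences and a few short stretches are shown for some of the named rows. In the RefSeq plastid genome (TAIR10.1), psaJ, a small subunit of photosystem I, and psaC, the subunit that holds the terminal iron-sulphur clusters of photosystem I, lie among the shortest genes, and they differed in opposite directions between the labels. The capitals mark their start and stop codons, 5′ to 3′.
psaJ: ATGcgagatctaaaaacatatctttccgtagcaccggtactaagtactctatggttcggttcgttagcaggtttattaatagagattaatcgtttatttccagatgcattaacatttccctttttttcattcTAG
psaC: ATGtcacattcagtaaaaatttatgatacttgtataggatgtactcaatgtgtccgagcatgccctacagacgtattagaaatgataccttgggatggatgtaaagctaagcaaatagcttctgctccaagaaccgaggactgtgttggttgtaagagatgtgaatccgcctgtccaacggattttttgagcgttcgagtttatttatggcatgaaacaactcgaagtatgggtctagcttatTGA
The step at which cDNA synthesis starts is not given in the sources used here, and an oligo(dT) primer can anneal within a transcript at a run of A. The longest such runs among the genes shown next, in capitals with 20 bases on each side, were 14 bases in rpoA (a subunit of the plastid-encoded polymerase), 13 in accD (a subunit of acetyl-CoA carboxylase), ycf1 (a protein of the import machinery) and rpoC2 (another polymerase subunit), against 5 in psaA and rbcL.
rpoA: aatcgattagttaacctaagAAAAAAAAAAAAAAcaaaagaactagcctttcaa
accD: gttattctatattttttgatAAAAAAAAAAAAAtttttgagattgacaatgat
ycf1: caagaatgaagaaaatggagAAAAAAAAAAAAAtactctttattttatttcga
rpoC2: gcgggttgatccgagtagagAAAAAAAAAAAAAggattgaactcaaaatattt
psaA: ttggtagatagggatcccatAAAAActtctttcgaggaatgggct
rbcL: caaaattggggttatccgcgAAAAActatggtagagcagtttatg
Over 45 named genes of at least 300 bases, the 5 with an A run of 10 bases or more had a median level of 32.8 FPKM and the other 40 had 10.97 FPKM, with ranges of 7.28 to 134 and 2.14 to 169 FPKM. Spearman's rho between the longest A run and the mean level was 0.16 across these genes, and 0.02 with the difference between the labels. Gene length had a rho of -0.31 with the level and -0.30 with the difference, and the percentage of A and T 0.30 with the level and -0.09 with the difference. The genes are not independent, and neighbours can share a transcript.

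A small share of the deposited FPKM fell on plastid rows. It is not the plastid share of root RNA, since the start of cDNA synthesis is not given and rRNA rows are near 0. The plastid rows made up 2.72% and 1.77% of summed FPKM in the EZ libraries at day 3, 1.02% and 0.946% at day 4, 1.19% and 0.850% at day 5, 1.85% and 0.973% at day 6 and 0.800% and 0.740% at day 7. In the MZ libraries they made up 0.499% and 1.07% at day 3, 0.604% and 0.368% at day 4, 0.220% and 0.278% at day 5, 0.283% and 0.235% at day 6 and 1.101% and 0.432% at day 7. Both EZ libraries lay above both MZ libraries at days 3 to 6, and at day 7 the 2 EZ values fell between the 2 MZ values. Counted as fragments, which gives short genes no added weight, the plastid rows held 0.0595% to 0.19996% of fragments in EZ (median 0.104%) and 0.0203% to 0.132% in MZ (median 0.0450%). Mitochondrial rows made up a median of 2.02% of FPKM in EZ and 1.23% in MZ. Of the 65 tested, 6 were higher and 2 lower in EZ. Both are smaller shares than the 20.6% and 7.77% of all genes tested.

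**Figure D1:**
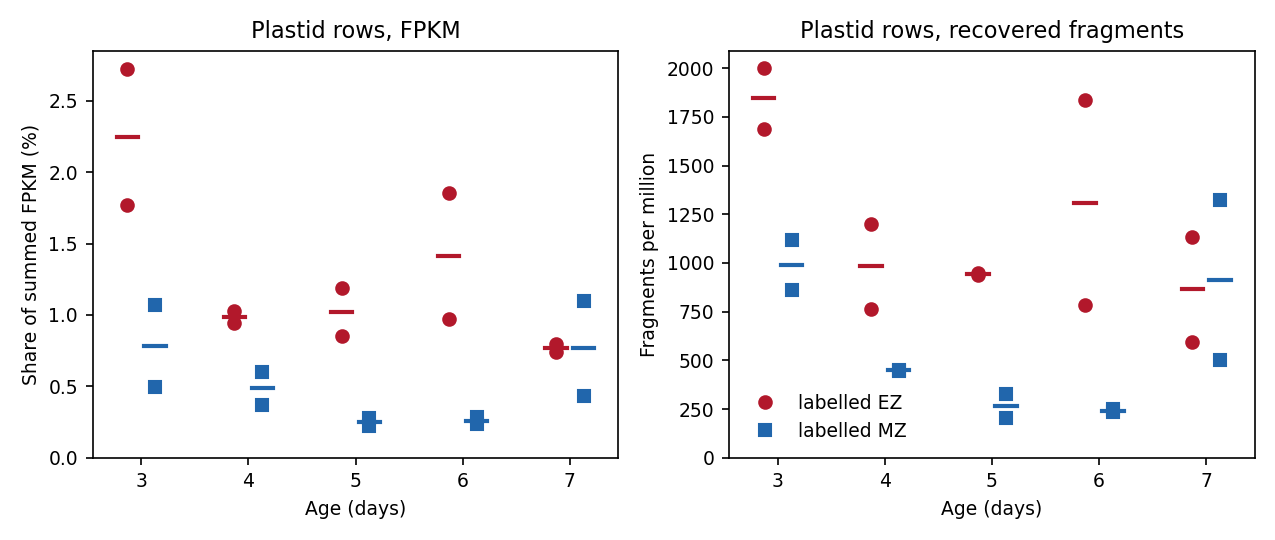
Share of summed FPKM in percent (left) and plastid fragments per M fragments of the library (right) of all plastid genome rows, against age in days, for the libraries labelled EZ (circles) and MZ (squares); bars are means of 2 libraries. The EZ points lie above the MZ points at days 3 to 6 in the left panel, and at day 7 an MZ library is the highest in both.

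The FPKM of the shortest rows rest on very few fragments. At the median depth 1 fragment was worth 0.0125 FPKM in ycf1, the longest of the rows, 0.0314 FPKM in psaA, 10.03 FPKM in psaJ and 57.8 FPKM in petN, and up to 214 FPKM in an unnamed row. By FPKM the highest named rows were short ones: psaJ at a mean of 456 FPKM over the 20 libraries, psbJ (a small subunit of photosystem II) at 401 FPKM and rpl32 (a protein of the large ribosomal subunit) at 381 FPKM. By fragments the order was another. The ycf1 row held 21.3% of all fragments of the 83 rows, rpoA 11.998%, rps3 (small ribosomal subunit) 5.62%, rpoC2 5.24% and accD 4.79%. These 5 rows held 49.0% together. The photosynthesis genes held a median of 44.5% of plastid FPKM in EZ and 50.2% in MZ, but 24.6% of plastid fragments in EZ and 30.1% in MZ. Genes of the polymerase and the ribosome held 44.7% of the fragments in EZ and 39.7% in MZ. The unnamed rows held a median of 24.3% of FPKM under both labels and at most 0.225% of fragments, and none of the 11 with a recovered length had more than 10.1 fragments in any library.

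**Figure D2:**
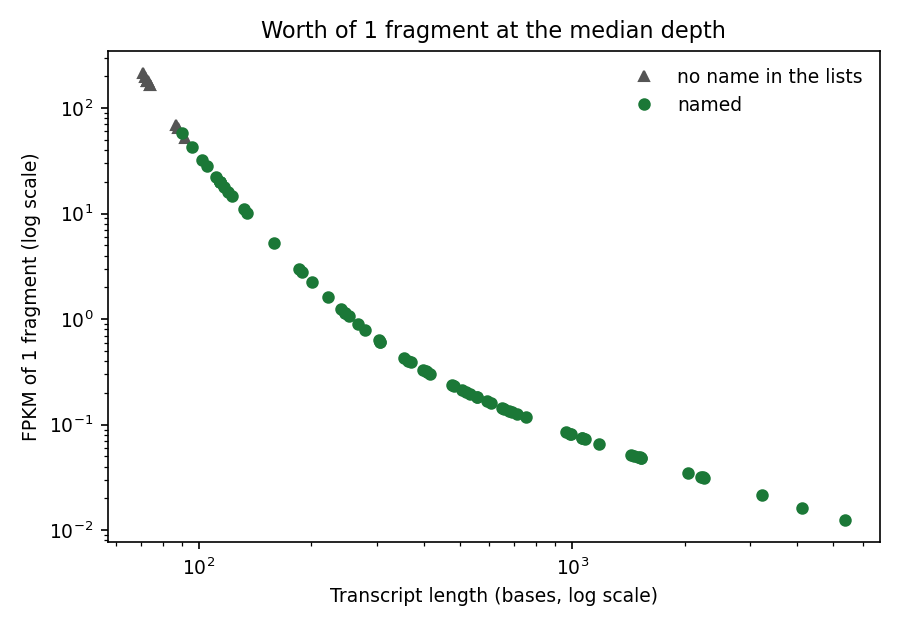
FPKM that 1 fragment is worth at the median depth, as computed from the recovered length curve, against transcript length in bases (both axes logarithmic), for named (circles) and unnamed (triangles) plastid rows. The worth ranges from 0.0125 FPKM in the longest to 214 FPKM in the shortest row.

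The inverted repeat of the plastid genome, which carries its genes as a pair of identical copies, is nearly absent from the values. Of the 47 ATCG rows that did not qualify, 23 have a name, and for 16 of these at least 95% of the 32-base words of the RefSeq gene occur elsewhere in the plastid genome. They include ndhB (ATCG00890, an NDH subunit) and the ribosomal RNA genes rrn16 (ATCG00920) and rrn23 (ATCG00950), and none exceeded 0.289 FPKM in any library. How fragments with several matches were counted is not given in the sources used here. The rows of psbC, atpB and rpl22 were not analysed here. In RefSeq these genes overlap psbD, atpE and rps3 on the same strand, and ndhF overlaps ycf1 on the other strand, so the values of psbD, atpE, rps3 and ndhF may include fragments of a neighbour and are uncertain. Of the 70 named genes 52 share under 1% of their words with the nuclear genome and 10 share 5% or more, up to 34.9%.

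The first comparison asked which plastid transcripts differ between the zones, as the mean difference over the 5 ages. Most were higher in the libraries labelled EZ. By limma, on log2(FPKM + 1) with Benjamini-Hochberg adjustment over all 22335 tested genes, 50 of the 83 rows were higher and 3 lower, against 20.6% and 7.77% of all genes tested. The median difference was 1.29 over the plastid rows and 0.15 over all genes. Of the 83 rows 5 reached 1 FPKM in fewer than 2 MZ libraries and so entered through the EZ libraries or both labels together, petN and 4 unnamed rows, and 2 of these were called higher. The other 78 had 48 higher and 3 lower, with a median of 1.18. All differences between labels below are EZ minus MZ on this scale, with SE from all 20 libraries. For no plastid row were the 10 EZ libraries all above, or all below, the 10 MZ libraries, against 0.927% and 0.139% of all genes. Median depth was 16.8 M fragments in EZ and 13.7 M in MZ, and the labels overlapped. From 2 to 11 plastid rows were listed at 0 in an EZ library and 4 to 23 in an MZ library. At day 4 the EZ libraries had 13.7 and 13.9 M fragments, with 6 and 10 rows at 0. The MZ libraries of that age had 13.8 and 20.4 M, with 12 and 15 rows at 0. The part of depth in the zeros was not tested. Among the 61 rows with a mean of at least 10 fragments, 39 were higher and 3 lower, with a median of 1.12.

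**Figure D3:**
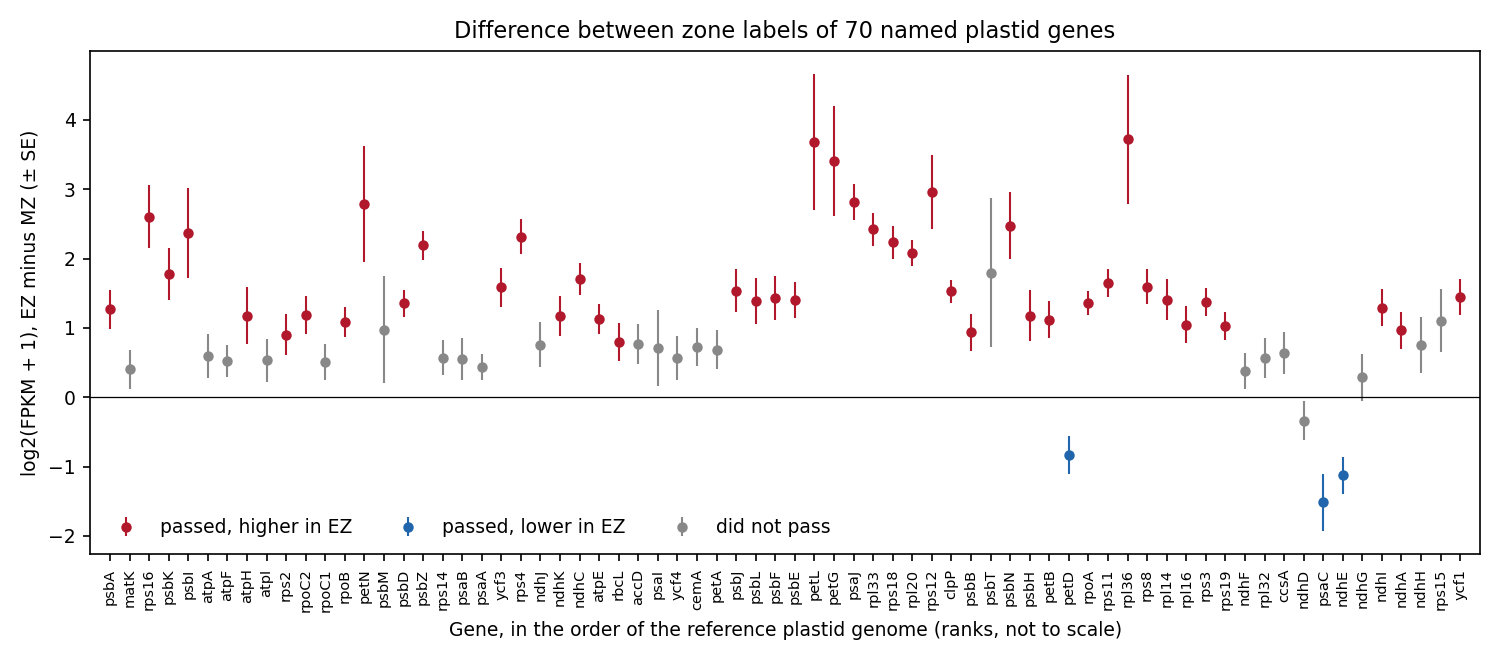
Difference between the zone labels (EZ minus MZ, log2(FPKM + 1), ± SE, n = 20 libraries) for the 70 named plastid genes in the order of the reference genome; ranks only. Red points passed the test as higher in EZ and blue as lower, grey did not pass; psaC and ndhE are neighbours, and the row from petL to clpP is higher throughout.

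Of the 14 photosystem II genes, 12 were higher in EZ and 0 lower, with a median of 1.41. psbA encodes the D1 reaction centre protein and is among the most abundant transcripts of green leaves. Leaves were not measured here and the start of cDNA synthesis is not given, so no comparison with leaves is drawn. The mean of psbA was 2.89 FPKM over the 20 libraries. It had 1.60, 4.11 and 7.18 FPKM (lowest, median and highest) in EZ and 0.0591, 0.941 and 5.30 FPKM in MZ, a difference of 1.27 ± 0.28 (adjusted p = 0.0039). The labels overlapped, with MZ day 3 replicate 2 above most EZ libraries. The small subunits had the highest FPKM. psbJ had 197, 545 and 1483 FPKM in EZ and 49.3, 197 and 662 FPKM in MZ and differed by 1.54 ± 0.31. psbL differed by 1.39 ± 0.33 and psbF, a cytochrome b559 subunit, by 1.43 ± 0.32. By locus code psbL lies beside psbJ, and psbF beside psbL. The larger core genes psbB and psbD (psbD uncertain as stated above) differed by 0.93 ± 0.27 and 1.36 ± 0.19. psbN, an assembly factor gene, differed by 2.48 ± 0.48 but had a median of 4.03 fragments in EZ and 0.50 in MZ.

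Photosystem I genes were divided. Of 7 genes counted here, ycf3 and ycf4 (assembly factors) included, 2 were higher, 1 lower and 4 did not pass. psaJ had 320, 730 and 1440 FPKM in EZ and 33.9, 94.7 and 385 FPKM in MZ, on a median of 92.7 fragments in EZ and 6.97 in MZ. It differed by 2.81 ± 0.26 (adjusted p = 5.5e-05), and MZ day 3 replicate 2 was the MZ library above an EZ library. psaC had 0, 12.5 and 28.7 FPKM in EZ and 6.49, 26.6 and 67.6 FPKM in MZ, on a median of 12.1 fragments in EZ and 14.9 in MZ. It differed by -1.52 ± 0.41 (adjusted p = 0.014), and did not pass without day 5 (-1.13, adjusted p = 0.11). Both MZ libraries lay above both EZ libraries at days 3, 4 and 5, and the labels overlapped at days 6 and 7. ycf3 differed by 1.58 ± 0.28 and was the other higher gene. The reaction centre genes psaA and psaB differed by 0.43 ± 0.19 and 0.55 ± 0.31 and did not pass (adjusted p = 0.097 and 0.20). psaI, another small subunit, differed by 0.71 ± 0.55 and did not pass.

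In the cytochrome b6f complex 4 of 6 genes were higher and 1 lower, and 1 of the 4, petN, had entered the test through the EZ libraries alone. petL and petG, small subunits, differed by 3.68 ± 0.99 and 3.40 ± 0.79 and were listed at 0 in 6 MZ libraries each, with medians of 3.02 and 5.04 fragments in EZ. petN was listed at 0 in all 10 MZ libraries, with at most 2.04 fragments in an EZ library, and no fold is given. Its call was lost with no filter on low values (adjusted p = 0.057) and without day 7 (adjusted p = 0.13). petB (cytochrome b6) had 11.8, 28.6 and 55.2 FPKM in EZ and 3.27, 10.9 and 67.2 FPKM in MZ, a difference of 1.12 ± 0.26 (adjusted p = 0.0060). petD (subunit IV), which follows petB on the same strand, had 0, 1.57 and 2.72 FPKM in EZ and 0.182, 2.13 and 27.5 FPKM in MZ. Its difference of -0.83 ± 0.27 (adjusted p = 0.034) rested on day 3, where the EZ libraries had 0.46 and 2.21 FPKM and the MZ libraries 12.7 and 27.5 FPKM. It was -0.25 without day 3 (adjusted p = 0.59) and -0.73 without MZ day 3 replicate 2 (adjusted p = 0.075), and the call was lost in 15 of 34 other settings. petA (cytochrome f) differed by 0.69 ± 0.28 and did not pass.

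The NDH complex, which carries electrons around photosystem I and is a minor complex of green plastids, had 4 genes higher, 1 lower and 5 that did not pass, of 10. ndhC had 75.1, 257 and 483 FPKM in EZ and 18.2, 70.9 and 211 FPKM in MZ, the highest level of the complex, and differed by 1.70 ± 0.23 (adjusted p = 0.00023). ndhE had 4.01, 8.20 and 13.4 FPKM in EZ and 6.26, 18.8 and 58.3 FPKM in MZ and differed by -1.13 ± 0.27 (adjusted p = 0.0062). Both MZ libraries lay above both EZ libraries at days 3 and 4, and the labels overlapped at days 5, 6 and 7. Without day 3 the difference was -0.89 and did not pass (adjusted p = 0.063). In the RefSeq order ndhD, psaC, ndhE, ndhG, ndhI, ndhA and ndhH stand in a row on one strand. Their differences were -0.34, -1.52, -1.13, 0.29, 1.29, 0.96 and 0.75 along that row, with ndhI (adjusted p = 0.0024) and ndhA (adjusted p = 0.015) higher. ndhD, ndhG and ndhH did not pass. A single RNA may cover several of these genes, so they are not independent measurements.

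**Figure D4:**
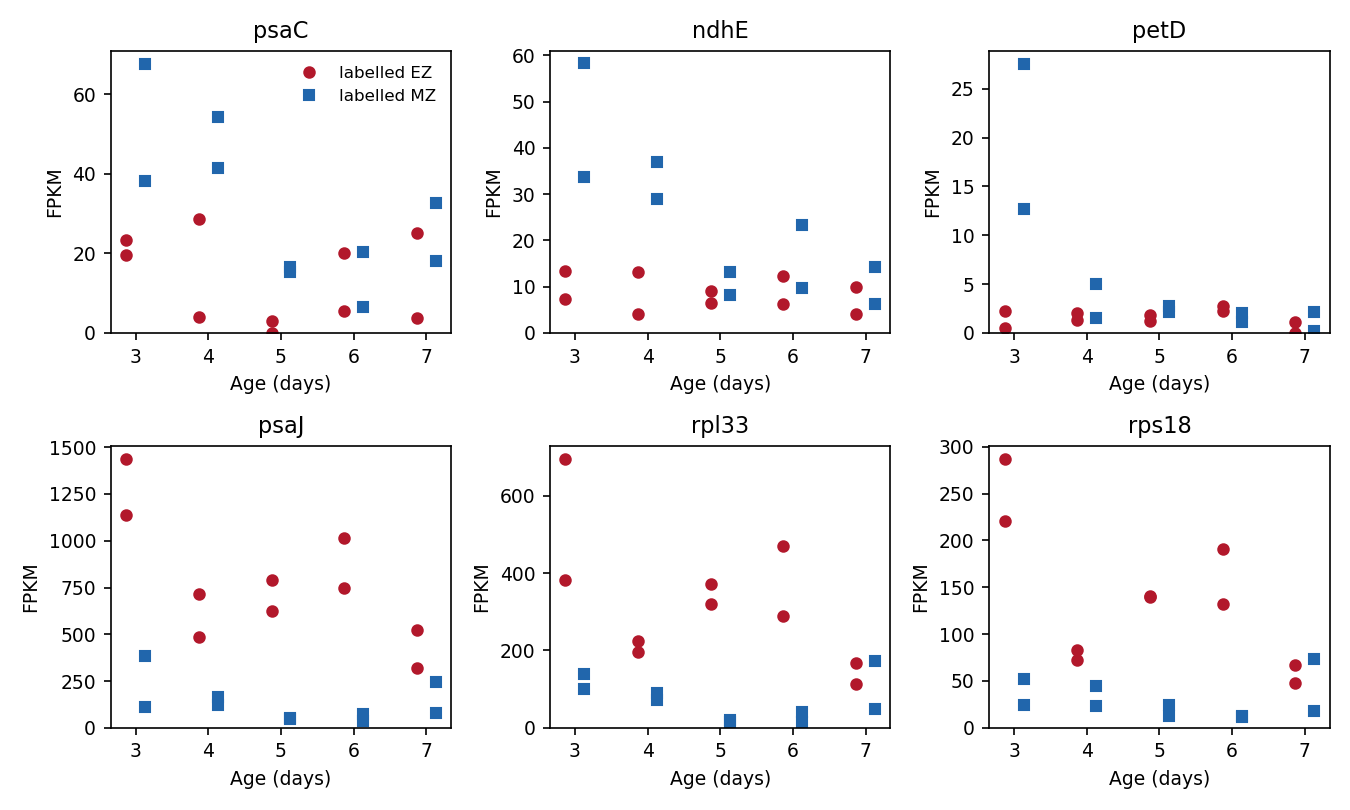
FPKM per library against age in days for the 3 genes lower in EZ (psaC, ndhE, petD) and for psaJ, rpl33 and rps18, which were higher; circles are libraries labelled EZ, squares those labelled MZ. The highest petD values, 12.7 and 27.5 FPKM, are the MZ libraries of day 3, and the EZ libraries of psaJ lie above the MZ libraries of the same age at every age.

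Of 5 ATP synthase genes 2 were higher and 0 lower. atpE (the epsilon subunit, its row uncertain as stated above) had 54.5, 85.8 and 171 FPKM in EZ and 16.3, 40.6 and 129 FPKM in MZ, a difference of 1.12 ± 0.22 (adjusted p = 0.0018). atpH, the ring subunit, differed by 1.17 ± 0.41 (adjusted p = 0.045), and atpF by 0.52 ± 0.23, which did not pass. rbcL, the large subunit of RuBisCO, had 2.77, 8.495 and 20.9 FPKM in EZ and 1.88, 4.69 and 17.9 FPKM in MZ and differed by 0.79 ± 0.28 (adjusted p = 0.045). The call of atpH was lost in 19 and that of rbcL in 25 of 34 other settings.

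Most genes of the plastid's own gene expression were higher in EZ. Of 17 ribosomal protein genes 14 were higher and 0 lower, with a median of 1.59, and of 4 polymerase genes 3 were higher. rpl33 had 113, 305 and 696 FPKM in EZ and 15.0, 59.6 and 174 FPKM in MZ and differed by 2.42 ± 0.24. rps18 had 48.2, 136 and 287 FPKM in EZ and 11.7, 23.8 and 73.2 FPKM in MZ and differed by 2.23 ± 0.24. They lie between psaJ and rpl20, which differed by 2.07 ± 0.19, and all 4 had an adjusted p of at most 7.5e-05. rpl36 had 88.4, 279 and 1136 FPKM in EZ and 0, 57.0 and 202 FPKM in MZ and differed by 3.72 ± 0.93, on a median of 15.1 fragments in EZ and 3.01 in MZ. rps12 and rps16 differed by 2.96 ± 0.53 and 2.60 ± 0.46. rpl32, the most abundant by FPKM of the class, differed by 0.57 ± 0.29 and did not pass. rpoA had 119, 169 and 304 FPKM in EZ and 30.1, 59.3 and 196 FPKM in MZ and differed by 1.36 ± 0.18 (adjusted p = 0.00019). rpoB and rpoC2 differed by 1.08 ± 0.22 and 1.19 ± 0.28, and rpoC1 by 0.51 ± 0.26, which did not pass.

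Of 6 other named genes 2 were higher. ycf1 had 25.4, 52.4 and 73.5 FPKM in EZ and 6.46, 14.7 and 59.5 FPKM in MZ and differed by 1.45 ± 0.26 (adjusted p = 0.0010). clpP, the proteolytic subunit of the Clp protease, differed by 1.53 ± 0.17 (adjusted p = 8.3e-05). accD differed by 0.77 ± 0.28 (adjusted p = 0.056), cemA (an envelope protein) by 0.72 ± 0.27 and matK (a splicing factor) by 0.40 ± 0.29, and none of these 3 passed. Of the 13 unnamed rows 6 were higher and 0 lower. They are reported together, and each of the 6 averaged under 3 fragments a library. The largest 2 differences were 4.64 ± 1.24 for ATCG00260 and 4.56 ± 1.07 for ATCG00370, each listed at 0 in at least 7 MZ libraries and with at most 6.04 fragments in any library.

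The second question was whether the difference held at each age. The contrast at single ages, chosen after the data were seen, rests on 2 libraries a group. The median difference of the 83 rows was 1.08 at day 3, 1.02 at day 4, 1.83 at day 5, 2.35 at day 6 and -0.06 at day 7. Over all genes tested it was 0.12, 0.04, 0.17, 0.11 and 0.28 at these ages. Both EZ libraries lay above both MZ libraries for 53 of 83 rows at day 3 (and for 32.6% of all genes tested), 46 at day 4 (22.2%), 59 at day 5 (35.2%), 65 at day 6 (23.4%) and 6 at day 7 (31.5%). Both lay below in 6 rows at day 3 (21.7%), 2 at day 4 (16.8%), 3 at day 5 (19.1%), 0 at day 6 (16.1%) and 7 at day 7 (6.75%). By limma 4, 0, 8, 12 and 0 rows were higher at days 3, 4, 5, 6 and 7, and 1 was lower at day 3. Of all genes, 1.38%, 0.00448%, 0.188%, 0.219% and 0.0851% were higher and 0.685%, 0.0134%, 0.0895%, 0.0582% and 0.00895% lower at these ages. The share of plastid rows with an unadjusted p under 0.05 was 27.7% at day 3 (23 rows), 27.7% at day 4 (23), 55.4% at day 5 (46), 75.9% at day 6 (63) and 6.02% at day 7 (5). Over all genes it was 20.5%, 10.3%, 18.9%, 15.8% and 13.8% at these ages, so that at day 7 it was lower in the plastid rows than over all genes. In the contrast of day 7 with the mean of days 3 to 6, 77 of 83 rows had a negative value. The median was -1.58 over the plastid rows and 0.17 over all genes. The rows share libraries, so their signs are not independent. In this contrast 1 row passed, rpl20 at -3.01 ± 0.47 (adjusted p = 0.033), against 0.0134% of all genes lower and 0.0403% higher. Of the 83, 34 had an unadjusted p under 0.05, where 8.04% of all genes did. MZ day 7 replicate 1 held 1.101% of its FPKM in plastid rows, the most of the MZ libraries. Without it the median at day 7 was 0.56, and in the contrast with days 3 to 6 it was -0.95 with 0 rows passing (13 with an unadjusted p under 0.05). The call of rpl20 was also lost without either EZ library of day 7. Without MZ day 7 replicate 2 the median was -0.70 at day 7, and 1 row passed in the contrast with days 3 to 6. The markers of dividing cells summed to 64.7 and 24.5 FPKM in the EZ libraries of day 7 and to 10.1 and 16.2 FPKM in the MZ libraries. Their part in the change at day 7 was not tested.

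**Figure D5:**
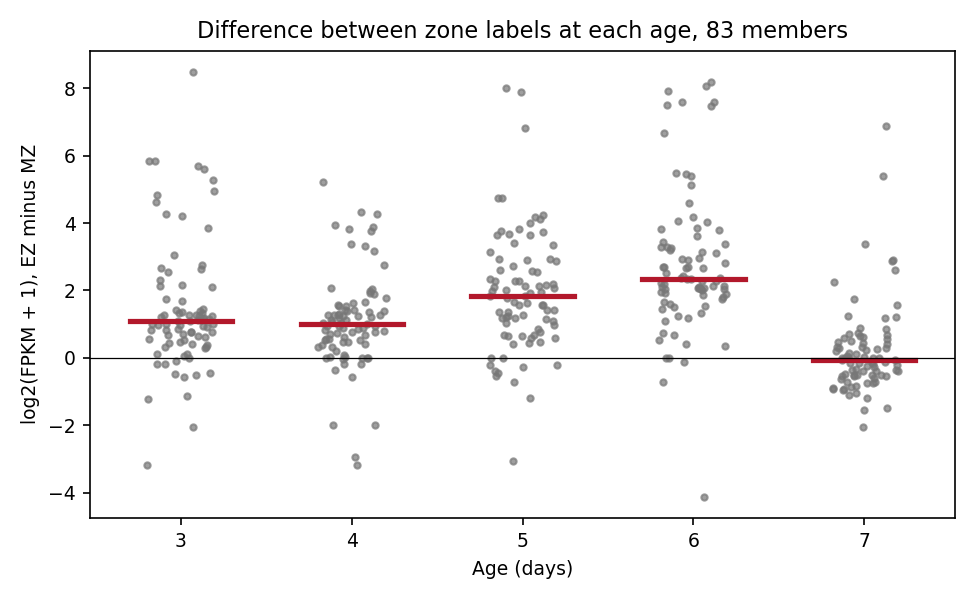
Difference of the 83 plastid rows between the zone labels (EZ minus MZ, log2(FPKM + 1), mean of 2 libraries each) at each age in days; each point is a row and the red bar is the median, which is 2.35 at day 6 and -0.06 at day 7.

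Age within a zone was tested as a linear trend per day. In EZ no plastid row passed, where 3 of 22335 genes did (0.0134%), and 17 rows had an unadjusted p under 0.05, all with a negative slope, where 8.33% of all genes had such a p. The smallest p were those of rpl20 (-0.38 ± 0.09 per day, adjusted p = 0.34), rps14 (-0.47 ± 0.12, adjusted p = 0.44) and rpoB (-0.39 ± 0.11, adjusted p = 0.46). In MZ 1 row, petD, fell with age (-0.73 ± 0.14 per day, adjusted p = 0.023), where 0.918% of all genes passed, 0.851% falling and 0.0672% rising. Its call was lost without MZ day 3 replicate 1 or 2, MZ day 4 replicate 2 or MZ day 7 replicate 2, with adjusted p from 0.059 to 0.17. The number of rows that passed in MZ was 3 without either EZ library of day 7. Slopes were negative for 78 of 83 rows in EZ, with a median of -0.24, and for 64 in MZ, with a median of -0.14. Over all genes the median slopes were -0.016 in EZ and -0.050 in MZ. The change of the zone difference with age passed in 0 rows, where 2 of all genes passed (0.00895%), and 2 rows had an unadjusted p under 0.05 (6.11% of all genes did), petD (0.66 ± 0.19) and ndhE (0.44 ± 0.19). Any difference among ages passed in 0 rows in EZ (0.0537% of all genes), with 17 at an unadjusted p under 0.05 (7.99% of all genes), and in 5 rows in MZ (0.412%), with 55 at an unadjusted p under 0.05 (9.47%). The 5 were psbZ, clpP, psbN, rps12 and rpl20, with adjusted p from 0.0076 to 0.045. The count in MZ was 0 without MZ day 7 replicate 1, 1 without MZ day 7 replicate 2 or MZ day 3 replicate 1, and 2 without MZ day 3 replicate 2 or MZ day 6 replicate 2. It was 3 without either MZ library of day 5 or either EZ library of day 5, and 2 without any 1 EZ library of days 3 and 4. In MZ psbZ, a small photosystem II subunit, had 155 and 266 FPKM at day 3, 50.7 and 54.3 at day 4, 14.9 and 46.9 at day 5, 14.2 and 12.7 at day 6 and 196 and 106 at day 7. clpP had 29.4 and 26.8 FPKM at day 3, 6.01 and 12.1 at day 4, 4.87 and 5.16 at day 5, 4.22 and 4.69 at day 6 and 28.5 and 17.2 at day 7. By FPKM the MZ libraries of day 6 were the lowest in both genes, and those of days 3 and 7 lay above those of days 4, 5 and 6. In psbZ the order of days 5 and 6 rests on few fragments and is uncertain. The MZ libraries had 3.99 and 6.98 psbZ fragments at day 5 and 1.98 and 3.97 at day 6. psbN was listed at 0 in both MZ libraries of days 5 and 6, and rps12 in both of day 6.

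Nuclear genes that serve the plastid were read from the same fit. Over all genes tested, 20.6% were higher and 7.77% lower in EZ, with a median difference of 0.15. Of 19 tested genes of plastid transcription 11 were higher and 1 lower in EZ, with a median of 0.88. They included FLN1, a fructokinase-like protein of the plastid polymerase complex (1.69 ± 0.25), PTAC2, another protein of that complex (1.14 ± 0.18), and RPOTmp, a phage-type polymerase (1.26 ± 0.22). SIG5, a sigma factor, was the lower one, at -0.56 ± 0.17 (named after its value was seen). RPOTp, the other phage-type polymerase of plastids, differed by 0.72 ± 0.28 and did not pass, nor did the sigma factors SIG2 (0.31 ± 0.19) and SIG6 (0.18 ± 0.27) or GUN1, a regulator of plastid signals to the nucleus (0.25 ± 0.14). Of 16 genes of plastid RNA processing 7 were higher and 0 lower, with CP31A, an RNA-binding protein, at 2.28 ± 0.24, CP29A, another, at 1.69 ± 0.34 and PNP, an exoribonuclease, at 1.27 ± 0.27. Of 37 nuclear genes of plastid ribosomal proteins 23 were higher and 0 lower, with a median of 0.89, among them PRPL5 (1.62 ± 0.24), PRPL4 (1.41 ± 0.22) and PRPL10 (1.09 ± 0.19). Of 33 tested nuclear photosynthesis genes 1 was higher (PSBX, 0.72 ± 0.25) and 0 lower, with a median of 0.13. This list was thus called less often than all genes. Many of its genes were near the floor, where log2(FPKM + 1) understates changes. The medians of the tested genes ran from 0 to 19.3 FPKM in EZ and from 0 to 15.0 FPKM in MZ. The few calls do not show that these genes were equal under the labels. Of 2 tested greening regulators 0 passed. No gene of these lists passed in an age trend.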

How the data were processed

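Root protoplast RNA was sequenced in 20 libraries. The authors deposited 1 table of FPKM per gene. TopHat2 2.0.13, Cufflinks 2.1.1 and TAIR10 are listed per the submitters' processing notes, without roles or settings. Depth was recovered from the step between low FPKM values of transcripts of at least 2000 bases. Of the values from 0.6 to 4.5 steps, 75.3% to 89.6% per library lay within 0.1 of a whole number. A length curve (fragments of 200 bases on average, SD 80, none under 48) turned FPKM into fragments. Its form was chosen after the values were seen, and rps12 was left out of its fit for its value.

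The fit took every gene that reached 1 FPKM in 2 or more libraries (22335 genes). Values were log2(FPKM + 1), a scale that understates changes of genes at low FPKM. It does not do so in the shortest plastid rows, where 1 fragment is worth up to 214 FPKM. There a step from 0 to 1 fragment makes a large difference. limma 3.58.1 (R 4.3.3) fitted 10 group means with a trended prior variance, so all 20 libraries share an estimate of the spread. Tests were two-sided at an adjusted p of 0.05. On simulated data for the zone difference the fit recovered 52% of 100 genes changed by 1 and 92% of 100 genes changed by 2 on the log2 scale. The submitters call the 2 replicates per group biological, and p-values measure the spread between these libraries.

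Other settings changed the pseudocount (0.1 or 5), dropped the filter or raised it to 5 FPKM, scaled by quantiles, median of ratios or the nuclear sum, weighted libraries, added a replicate block, or left out each library in turn. Contrasts at single ages, ages left out and a minimum of 10 fragments were added after the data were seen. Members and gene lists were chosen with earlier results of these data known. The text names the 3 members of each role with the highest mean, up to 8 called members per direction, the 3 smallest p where none passed, up to 3 called genes per nuclear list, and a fixed set of genes in any case. Unnamed rows are given as a group instead. Chosen after their values were seen were ndhD, ndhG, ndhA, ndhH, psbB, psbD, psaB, ycf3, petA, rps18, rpl33, cemA, matK, SIG5 and the limit of 10 bases for A runs. Gene names follow the standard locus codes. Sequences are RefSeq's from TAIR10.1 and are given without positions, since the table's build is named TAIR10.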

Additional observations from a re-analysis of the deposited data

Results flagged for a closer look

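The 82 sets of 10 libraries examined were each 1 of 35 named genes or a library measure such as the plastid share, under 1 zone label. In 15 sets, all of them genes, the highest library lay farther from the next than Dixon's 95% limit allows. That limit assumes normally distributed values from a single population. The gene sets here are FPKM pooled over all ages, and genes of the same library are not independent. How many flags chance would give was therefore not estimated. The flags came from 3 libraries. EZ day 3 replicate 1 was the highest EZ library for petG at 259 FPKM against 124 FPKM in the next, for psbF at 1207 against 656 FPKM and for psbJ at 1483 against 705 FPKM. It was also the highest for rpl36 at 1136 against 472 FPKM and for rps16 at 79.5 against 44.1 FPKM. This library had the largest plastid share of all, 2.72% of FPKM.

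MZ day 7 replicate 1 was the highest MZ library for accD at 65.6 against 35.6 FPKM, atpF at 12.5 against 6.75 FPKM, petB at 67.2 against 26.7 FPKM and psbN at 156 against 48.4 FPKM. The same held for rbcL at 17.9 against 9.59 FPKM, rps12 at 223 against 94.3 FPKM and ycf1 at 59.5 against 34.7 FPKM. It had the largest plastid share of the MZ libraries, 1.101% of FPKM.

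MZ day 3 replicate 2 was the highest MZ library for petD at 27.5 against 12.7 FPKM, psbA at 5.30 against 2.21 FPKM and psbJ at 662 against 325 FPKM.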

How the results depend on the processing

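The number of plastid rows that passed between the labels, 53, ran from 46 to 61 when 1 library was left out, and was 58 with a replicate block, 46 with no filter, and 45, 50, 38, 39 and 61 without days 3, 4, 5, 6 and 7. Libraries with the same number deviated together with correlations of 0.010, 0.28, 0.073, 0.034 and 0.35 at days 3 to 7, so the numbers were not taken to pair libraries. Of 1190 values of 35 named genes under other settings, 1106 kept direction and call, 70 lost the call, 13 gained it and 1 changed sign, psaI at -0.12 without day 6; the cause was not tested. The trend count in MZ, 1, was 0 with a pseudocount of 0.1 or quantile scaling and 2 with a pseudocount of 5 or the replicate block, and 0 to 3 with a library left out. The count for any difference among ages in EZ was 1 with a pseudocount of 5 and 0 without any 1 library. In MZ it was 3 with no filter or with scaling to the nuclear sum, and 0 to 7 with a library left out. Nuclear genes called numbered 37 to 48 with a library left out. The plastid share in EZ was 0.174% when weighted by length, and 0.973% to 1.02% with a library left out. Without rRNA and unnamed rows photosynthesis genes held 62.1% of plastid FPKM in EZ, gene expression 35.8% in EZ and 35.3% in MZ, and other named rows 2.37% in EZ and 3.06% in MZ. Weighted by length, photosynthesis held 36.2% in EZ, gene expression 41.4% in EZ and 37.0% in MZ, other named rows 15.2% in EZ and 16.9% in MZ, and unnamed rows 7.24% in EZ and 6.62% in MZ. Depth limits the shortest rows most, where 1 fragment is worth up to 214 FPKM.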
